A study of Mus musculus with 2 samples.

Results

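The glycolytic enzymes described here are 10 genes, Hk2, Gpi1, Aldoa, Tpi1, Gapdh, Pgk1, Pgam1, Eno1, Pkm and Ldha, chosen by name out of 22253 genes in the deposited RNA table. Their levels were followed across cell populations and across 5 organoid cultures of mouse distal small intestine, 3 of them Etv1 mutant and 2 control. Organoids are three-dimensional epithelial cultures, which renew themselves from stem cells and also contain absorptive and secretory cells. All 5 cultures carried the reporters Neurog3-RFP and Gcg-Venus, and each was sorted, marked with a hashtag oligonucleotide of its own and pooled with the others before sequencing. The labels call the cultures of a genotype biological replicates, and neither the kind of Etv1 mutation nor the sort gate is stated in them. The choice of the 10 genes was made with results of these data in view, so their levels by population are given as a description without a test.

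Glycolysis breaks glucose down to pyruvate in the cytosol and yields ATP without oxygen. Hexokinase 2 (Hk2) traps glucose by phosphorylating it, Gpi1 converts glucose-6-phosphate to fructose-6-phosphate, and aldolase A (Aldoa) and triose phosphate isomerase (Tpi1) produce the triose that feeds the lower pathway. Gapdh, Pgk1, Pgam1, enolase 1 (Eno1) and pyruvate kinase M (Pkm) carry the triose to pyruvate, and lactate dehydrogenase A (Ldha) reduces pyruvate to lactate so that the pathway can continue. Several of these genes are textbook targets of hypoxia-inducible factor, a transcription factor stabilised when oxygen is low, whose binding site has the core ACGTG in many targets. In the intestinal epithelium, stem and progenitor cells and the absorptive enterocytes that derive from them are known to differ in how much they rely on glycolysis and on mitochondria.

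Promoter windows of 300 bases, from 250 before to 50 after an annotated start, were taken from RefSeq (build GRCm38.p6), and all 10 genes had at least 1 window, 16 in all. ACGTG, searched on both strands (as ACGTG or its reverse complement CACGT), lay in a window of 7 of the 10 genes and in 8 of their 16 windows. Of all 32851 RefSeq promoter windows of the same length 19.6% hold it, and 7.15% hold CACGTG, the E-box, which contains both forms and overlaps them. The 8 windows include 2 overlapping windows of Aldoa that hold the same stretch. The shares of all promoters are per window, and no share per gene was computed to set beside the 7 of 10. A match describes the letters and not a bound site. The windows of Ldha, Pgk1 and Hk2 are shown because they each held 2 or more separate stretches and because the levels of Ldha and Pgk1 followed each other while those of Hk2 did not. Sequences run 5′ to 3′ in the direction of transcription, and capitals mark each stretch of the core or the E-box.
Ldha, chr7:46845554-46845853, plus strand: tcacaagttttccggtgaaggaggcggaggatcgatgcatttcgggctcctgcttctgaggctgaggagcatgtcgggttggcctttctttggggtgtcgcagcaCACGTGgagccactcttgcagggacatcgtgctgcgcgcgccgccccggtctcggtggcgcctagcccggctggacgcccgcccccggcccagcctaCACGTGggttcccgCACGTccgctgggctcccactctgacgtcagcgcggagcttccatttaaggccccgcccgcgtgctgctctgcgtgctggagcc
Pgk1, chrX:106186850-106187149, plus strand: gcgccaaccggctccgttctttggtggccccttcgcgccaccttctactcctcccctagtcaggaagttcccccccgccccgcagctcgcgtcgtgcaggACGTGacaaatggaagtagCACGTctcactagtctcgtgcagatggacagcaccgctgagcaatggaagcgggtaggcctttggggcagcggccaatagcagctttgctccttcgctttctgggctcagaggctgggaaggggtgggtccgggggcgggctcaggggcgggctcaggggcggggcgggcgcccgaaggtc
Hk2, chr6:82774405-82774704, minus strand: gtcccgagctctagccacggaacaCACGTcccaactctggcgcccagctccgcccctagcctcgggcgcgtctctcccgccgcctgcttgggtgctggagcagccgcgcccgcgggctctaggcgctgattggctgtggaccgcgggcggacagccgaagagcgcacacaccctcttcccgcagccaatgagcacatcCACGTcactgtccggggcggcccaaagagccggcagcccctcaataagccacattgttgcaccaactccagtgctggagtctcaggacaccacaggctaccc
The Ldha window shown held 3 such stretches, 2 of them the E-box. The windows of Pgk1 and Hk2 held 2 each and no E-box. A second window of Ldha held none, and a window of Pkm, not shown, also held 2 and no E-box. Windows of Gpi1, Tpi1 and Eno1 held none. Of all promoter windows, 2.69% hold 2 or more.

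On mm10, GENCODE vM21 places Hk2 at chr6:82725025-82774454, Gapdh at chr6:125161715-125166467 and Tpi1 at chr6:124810586-124814296, all on the minus strand. Chromosome 7 carries Gpi1 (chr7:34201330-34230336, minus), Ldha (chr7:46841475-46855627, plus) and Aldoa (chr7:126795234-126800751, minus). Pgk1 lies at chrX:106187100-106203699, Pgam1 at chr19:41911923-41918660, Eno1 at chr4:150236721-150248879 and Pkm at chr9:59656368-59679375, all on the plus strand. All are protein-coding. The symbol Aldoa stands for a second annotated gene as well, at chr7:126800790-126809108, and the table has 1 row for it. Eno1 and Gapdh are uncertain to a degree, because near-identical copies elsewhere in the genome can share their reads. The retrogene Eno1b was 99.5% identical to Eno1 and had 3.79% of its counts, and 32.1% of the Eno1 values above 0 were fractions, against 8.43% for Gapdh, 0.221% for Gpi1 and none for the other 7 genes.

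After filtering, 1432 cells could be placed in 1 culture by their hashtags, 282, 281 and 197 in mutant cultures 1, 2 and 3 and 323 and 349 in control cultures 1 and 2. Summed UMI counts (unique molecular identifiers, each standing for a captured transcript) ranged over cultures between 4193197 and 7254380. Etv1 itself was at 3.21, 3.06 and 3.10 CPM (counts scaled to a library of 1000000) in mutant cultures 1, 2 and 3, against 6.20 and 6.28 CPM in control cultures 1 and 2. Clustering gave 11 populations, of which 8 were named from marker lists as enterocyte-like, stem-like, cycling-like, goblet/Paneth-like and enteroendocrine-like, and each is called here by its class and leading genes. The Lgals3/Areg enterocyte-like population carried 6 of 12 enterocyte markers, none of them among its 10 leading genes. The enteroendocrine-like population of 63 cells held 9 that a finer clustering set apart as tuft-like. Mesenchymal markers were at 0 for 6 of 6 genes, and immune, endothelial and neuronal or glial marker lists summed to 71, 45 and 105 counts in all cells.

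The glycolytic enzymes made up the largest share of the transcriptome in enterocyte-like cells and the smallest in Lgr5-rich stem-like cells. As a sum, the 10 genes took 2.44% ± 0.50 of all UMIs in the Apoa1/Apoc3 enterocyte-like population and 1.88% ± 0.43 in the Lgals3/Areg enterocyte-like population (SD, n = 5 cultures). The unnamed Atf5/Psat1 population followed with 1.28% ± 0.31, then enteroendocrine-like cells with 1.19% ± 0.55 and Ube2c/Nusap1 cycling-like cells with 1.12% ± 0.31. At the other end the share was 0.862% ± 0.192 in Pclaf/Rrm2 cycling-like cells and 0.698% ± 0.145 in Edn1/Lgr5 stem-like cells. Of the 10 genes, 7 had their highest mean in the Apoa1/Apoc3 population, 2 (Pgk1 and Pkm) in the Lgals3/Areg population and 1 (Hk2) in enteroendocrine-like cells, while 6 had their lowest mean in Edn1/Lgr5 stem-like cells. Between the populations with the highest and the lowest mean, the ratio lay between 1.92 for Pkm and 5.39 for Gapdh in the genes other than Hk2. Because Hk2, Gapdh and Eno1 were among the 2000 variable genes used for clustering, the populations are not independent of them.

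**Figure D1:**
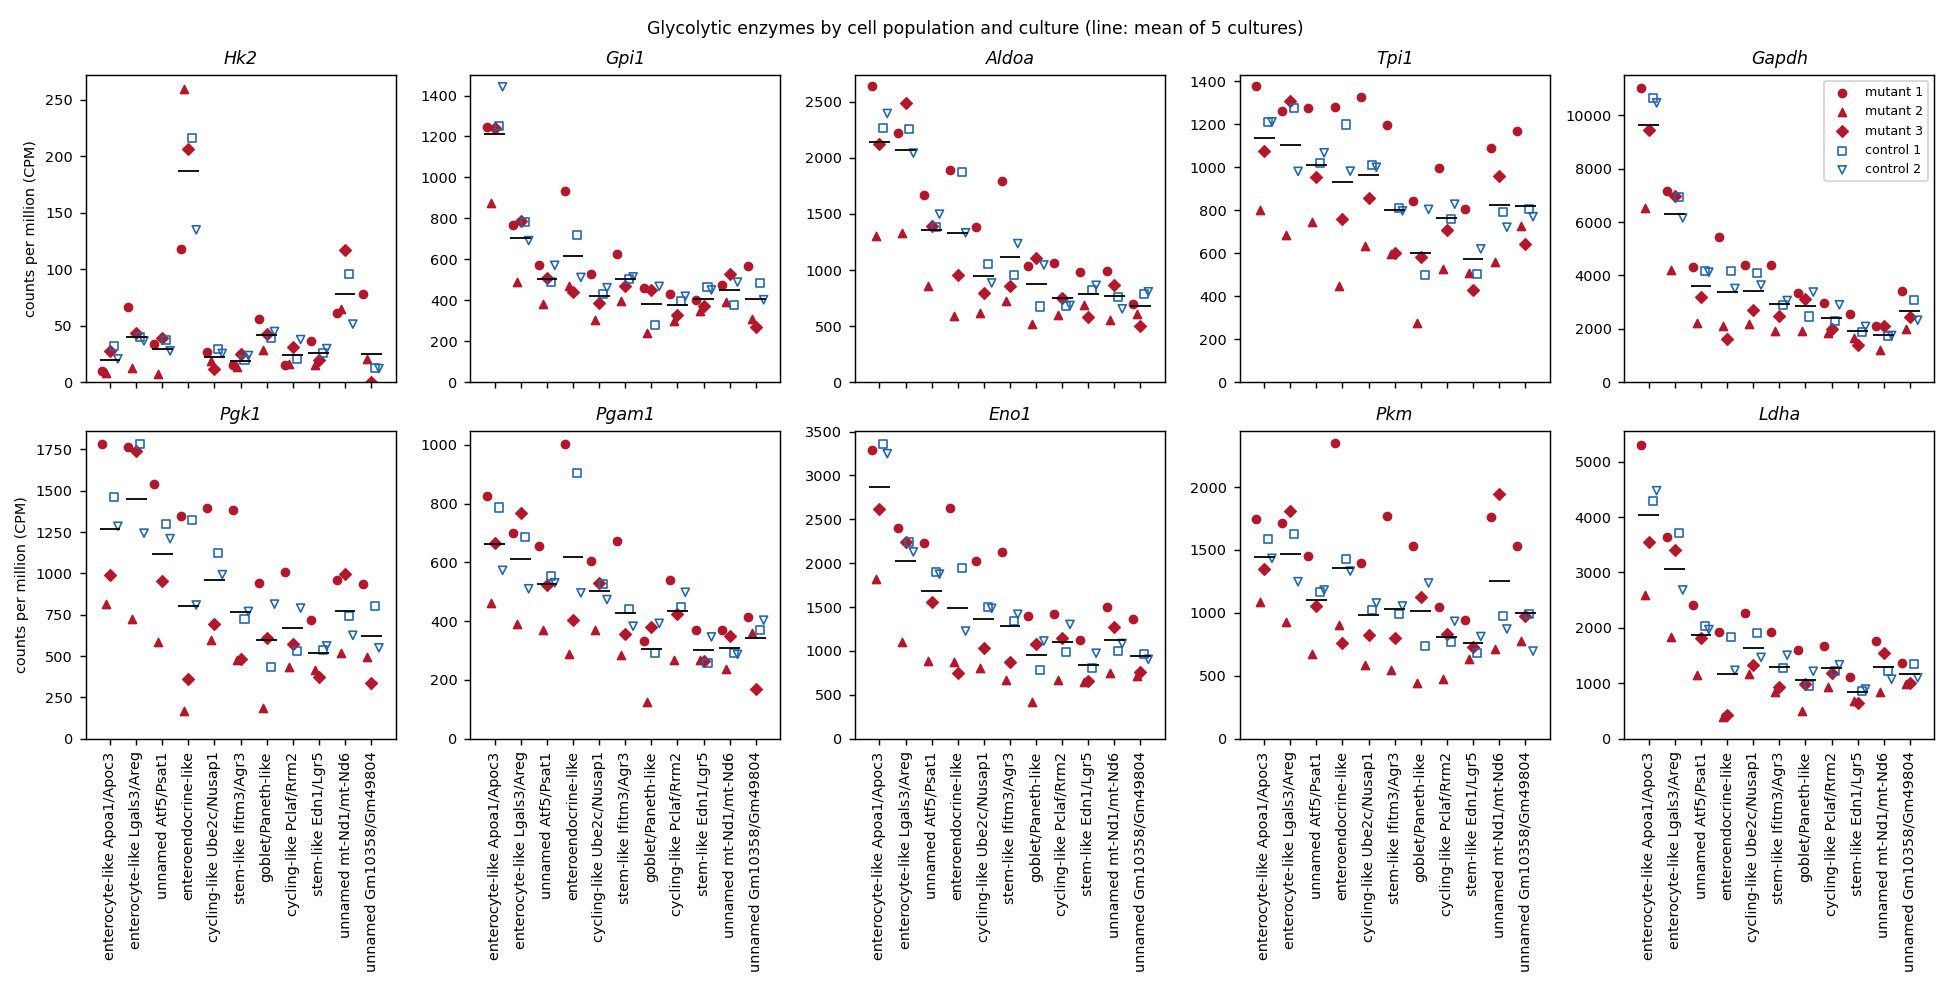
Level of each glycolytic enzyme in 11 cell populations, in CPM (linear axis from 0) of the summed UMIs of a culture's cells in that population. Filled red symbols are the 3 mutant cultures, open blue symbols the 2 control cultures, and the black line is the mean of the 5. Most panels fall from the enterocyte-like populations on the left toward stem-like cells, whereas Hk2 peaks in enteroendocrine-like cells at a mean of 187 CPM.

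Ldha, the lactate-forming enzyme, and Gapdh had the widest gaps between enterocyte-like and stem-like cells. In the Apoa1/Apoc3 enterocyte-like population Ldha had 5309, 2596 and 3556 CPM in mutant cultures 1, 2 and 3 and 4292 and 4475 CPM in control cultures 1 and 2. In the Edn1/Lgr5 stem-like population the same cultures gave 1121, 688 and 642 CPM and 859 and 897 CPM. The ranges did not overlap, and the lowest enterocyte-like value lay above the highest stem-like value. On the log2(CPM + 1) scale the difference was 2.25 (SD 0.21 over 5 cultures), a 4.76-fold mean ratio, and all 5 cultures had it.

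Gapdh, which oxidises the triose and reduces NAD, differed by 2.33 (SD 0.32), from 11029, 6536 and 9440 CPM in the mutant and 10649 and 10459 CPM in the control cultures for Apoa1/Apoc3 enterocyte-like cells, against 2571, 1678 and 1386 CPM and 1868 and 2094 CPM for Edn1/Lgr5 stem-like cells. Eno1 differed by 1.77 (SD 0.25) between the same populations, Gpi1 by 1.56 (SD 0.17), Aldoa by 1.43 (SD 0.33) and Pgk1 by 1.26 (SD 0.19). Pgam1, at 1.12 (SD 0.37), Tpi1, at 0.99 (SD 0.30), and Pkm, at 0.92 (SD 0.17), differed least. Each of these 9 genes was higher in the Apoa1/Apoc3 enterocyte-like population in 5 of 5 cultures. Hk2 was not: its difference was -0.46 (SD 0.91), with 2 cultures above 0 and 3 below.

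Set against Edn1/Lgr5 stem-like cells, the median log2 difference of the 10 genes was 1.35 in Apoa1/Apoc3 enterocyte-like, 1.12 in Lgals3/Areg enterocyte-like, 0.81 in unnamed Atf5/Psat1, 0.69 in Ube2c/Nusap1 cycling-like and 0.67 in enteroendocrine-like cells. For all 5363 genes with at least 20 CPM on average, the corresponding medians were -0.44, -0.15, 0.00, 0.00 and 0.04. Goblet/Paneth-like cells, the secretory populations of mucus and antimicrobial peptides, were close to the stem-like level, with a median of 0.11 for the enzymes and -0.19 for all genes. Of the cycling-like populations, the one led by the DNA replication genes Pclaf and Rrm2 had a median of 0.33, below the 0.69 of the one led by the mitotic genes Ube2c and Nusap1.

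Within a gene, the ranges of neighbouring populations over cultures mostly overlapped. Of 100 neighbouring pairs of populations in the orders of the 10 genes, 2 had ranges over cultures that did not overlap, and 15 had the same direction in all 5 cultures. These 2 were Hk2 in enteroendocrine-like cells over the unnamed mt-Nd1/mt-Nd6 population and Gpi1 in Apoa1/Apoc3 over Lgals3/Areg enterocyte-like cells. Gpi1, which starts the path from glucose-6-phosphate into the triose stage, had 1247, 873 and 1243 CPM in mutant cultures 1, 2 and 3 and 1250.5 and 1442 CPM in control cultures 1 and 2 in the first of these populations. In the Lgals3/Areg cells it had 769, 492 and 789 CPM and 782 and 692 CPM. Compared within each culture, some neighbours with overlapping ranges kept 1 direction throughout. Gapdh was higher in Apoa1/Apoc3 than in Lgals3/Areg enterocyte-like cells in 5 of 5 cultures, by a mean of 0.62 (SD 0.12) on the log2 scale, and Ldha was higher in Lgals3/Areg than in Atf5/Psat1 cells in 5 of 5, by 0.70 (SD 0.19). For the 10 enzymes as a sum, the Atf5/Psat1 population had 1.617%, 0.787% and 1.199% of UMIs in mutant cultures 1, 2 and 3 and 1.404% and 1.406% in control cultures 1 and 2. In each culture this was above the Ube2c/Nusap1 cycling-like population, with 1.53%, 0.730% and 0.918% in the mutant and 1.27% and 1.15% in the control cultures.

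Hexokinase 2 had a distribution of its own, with its highest level in enteroendocrine-like cells, the hormone-secreting cells of the gut. There it had 118, 259 and 207 CPM in mutant cultures 1, 2 and 3 and 216 and 135 CPM in control cultures 1 and 2. The next population, the unnamed shallow cells led by mt-Nd1 and mt-Nd6, averaged 78.2 ± 27.2 CPM (SD, n = 5), and goblet/Paneth-like cells averaged 42.3 ± 9.9 CPM. All 5 enteroendocrine-like values lay above every culture of every other population. In Apoa1/Apoc3 enterocyte-like cells, where most of the other enzymes peaked, Hk2 averaged 19.95 ± 10.6 CPM, and in Edn1/Lgr5 stem-like cells 25.7 ± 8.3 CPM. The counts behind these values were small: 134 counts in 63 enteroendocrine-like cells, of which the cell with the most held 10 (7.46%), and between 7 and 18 cells per culture. Pooled over cultures, the level was 186 CPM, and without the 9 tuft-like cells, which held 1 of the 134 counts, it was 204 CPM.

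At equal depth the same population stood out. After thinning each cell to 5000 UMIs and leaving out shallower cells, 37 of 53 enteroendocrine-like cells (69.8%, 95% exact binomial interval 55.7 to 81.7) had at least 1 Hk2 UMI. The other 8 populations outside the 2 shallow unnamed ones lay between 8.79% (8 of 91 Pclaf/Rrm2 cycling-like cells) and 17.6% (25 of 142 Lgals3/Areg enterocyte-like cells), and the mt-Nd1/mt-Nd6 population had 27.0% of 100 cells. Unthinned, the shares were 69.8% of enteroendocrine-like cells and 27.1% to 57.8% in those 8 populations, although enteroendocrine-like cells were the shallowest of the named populations, with a median of 9535 UMIs against 18571 or more. The intervals cover counting error only, and thinning left out 10 of the 63 enteroendocrine-like cells. None of the named populations is known to lack Hk2, so the background from free RNA could not be read from them.

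**Figure D2:**
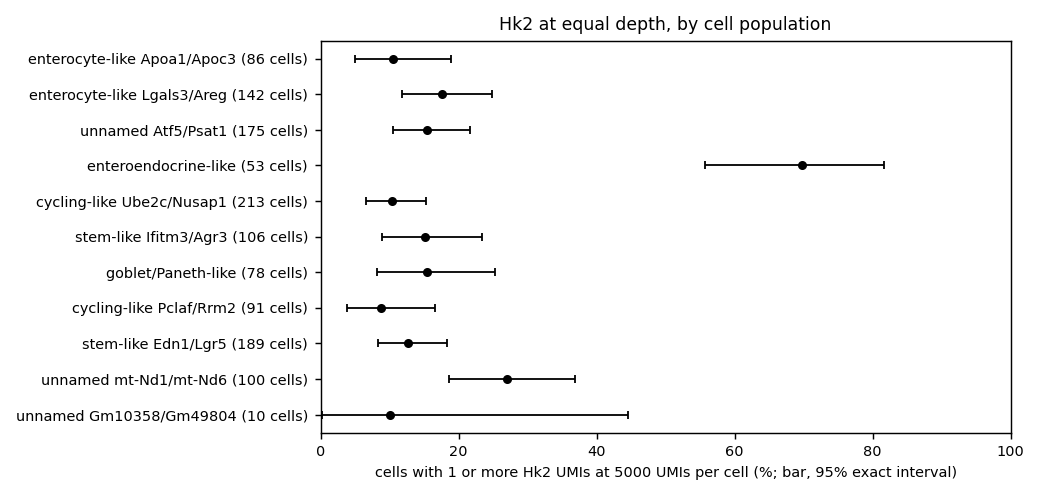
Share of cells with at least 1 Hk2 UMI after each cell was thinned to 5000 UMIs, by population, with the number of cells that were deep enough. Points are shares over all cultures and bars are 95% exact binomial intervals. Enteroendocrine-like cells, at 69.8%, lie above the intervals of all other populations.

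Across cultures, the enzymes went up and down together, and the widest gap lay within the mutant genotype. Over all cells, Pgk1, which generates ATP from 1,3-bisphosphoglycerate, had 1359, 567 and 826 CPM in mutant cultures 1, 2 and 3 and 1085 and 933 CPM in control cultures 1 and 2. Eno1 had 2020, 923 and 1336 CPM in the mutant and 1633 and 1545 CPM in the control cultures. Ldha had 2435, 1293 and 1643 CPM in the mutant and 2060 and 1676 CPM in the control cultures. In each of the 3 genes mutant culture 1 was the highest and mutant culture 2 the lowest, and both controls lay between them. Pkm, which makes pyruvate and ATP, had 1456, 701.3 and 1072 CPM in the mutant and 1117 and 1087 CPM in the control cultures, and Tpi1 had 1208, 626 and 826 CPM in the mutant and 940 and 907 CPM in the control cultures.

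Mutant culture 1 was the highest in 9 of the 10 genes and mutant culture 2 the lowest in 10 of 10, and 9 genes had both. Among all 5145 genes with at least 20 CPM over all cells, 24.1% were highest in mutant culture 1, 23.4% were lowest in mutant culture 2, and 7.04% had both. Hk2 was the exception at the top, with 39.3 CPM in control culture 1 and 35.1 CPM in mutant culture 1. The ratio between the highest and the lowest culture lay between 1.41 for Gpi1 and 2.40 for Pgk1. Its median on the log2 scale was 0.93 for the 10 enzymes and 0.28 for all genes. The 2 cultures at the extremes were alike in depth and mitochondrial share, with medians of 23268 and 24126 UMIs and of 3.47% and 3.47% mitochondrial counts in mutant cultures 1 and 2. Their make-up differed, since 18.4% and 22.8% of their cells were enterocyte-like and 12.8% and 20.3% stem-like. The summed level of the 10 cycling markers was 1671, 1163 and 809 CPM in mutant cultures 1, 2 and 3 and 1119 and 1268 CPM in control cultures 1 and 2, and that of the 12 enterocyte markers was 1161, 1051 and 890 CPM in the mutant and 855 and 613 CPM in the control cultures. Both lists were thus highest in mutant culture 1 but not lowest in mutant culture 2.

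The same order was present inside single cell populations. In the 8 populations with at least 10 cells in every culture, 61 of 80 pairs of an enzyme and a population were highest in mutant culture 1, 70 of 80 were lowest in mutant culture 2, and 55 had both. Both held for 9 of 10 enzymes in the Atf5/Psat1, Ifitm3/Agr3 stem-like, Ube2c/Nusap1 and Pclaf/Rrm2 cycling-like populations, against 8.22%, 7.11%, 4.17% and 2.93% of all genes there. In Lgals3/Areg enterocyte-like and in Edn1/Lgr5 stem-like cells 3 of 10 enzymes had both. In the first of these, mutant culture 3 was as high as mutant culture 1, with Gapdh at 7171, 4209 and 6974 CPM in the mutant and 6935 and 6155 CPM in the control cultures. In the second, mutant culture 3 was among the lowest, with Pgk1 at 716, 417 and 376 CPM in the mutant and 534 and 562 CPM in the control cultures. Why the cultures differ was not tested.

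**Figure D3:**
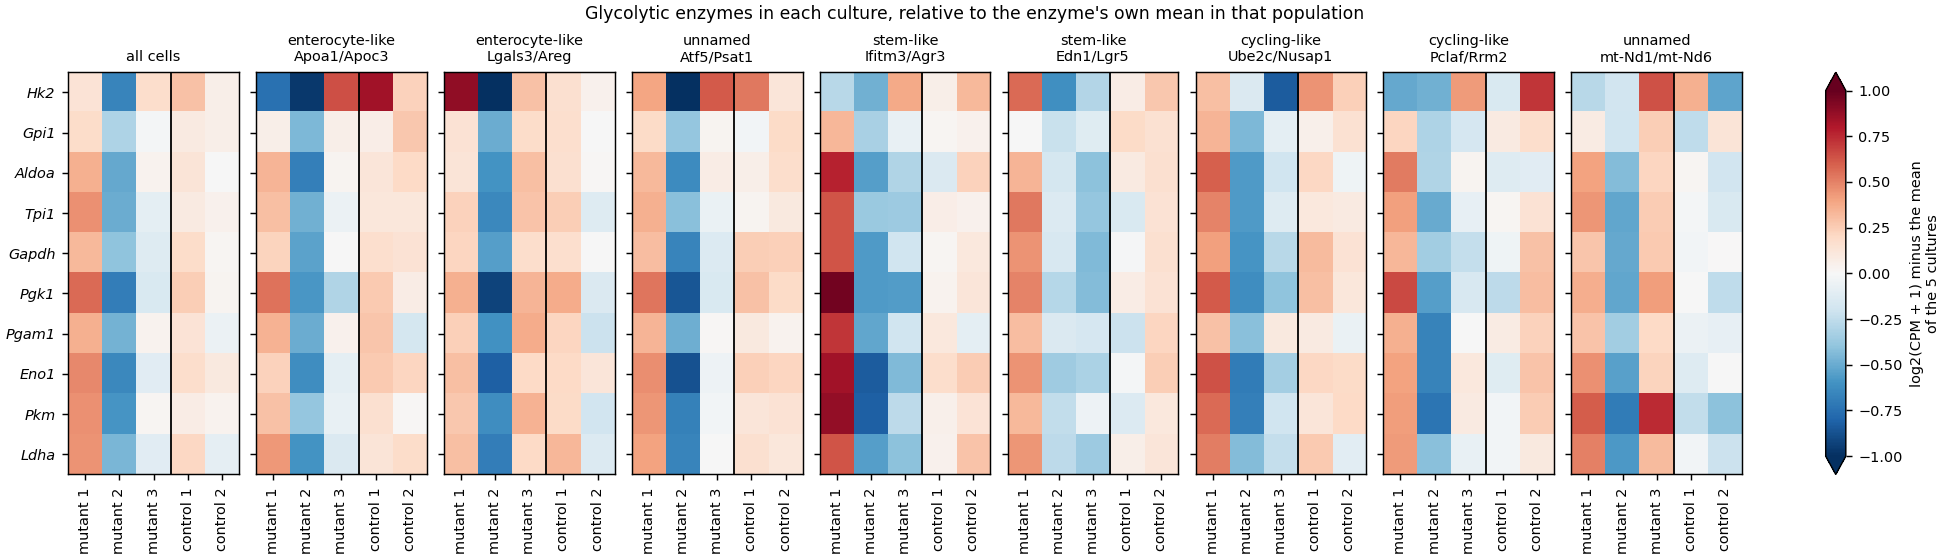
Each glycolytic enzyme in each culture, as log2(CPM + 1) minus the mean of the 5 cultures in that population (red above, blue below; colours end at 1 and -1), over all cells and in 8 populations. The 3 mutant cultures stand left of the black line and the 2 control cultures right of it. Mutant culture 1 is mostly red and mutant culture 2 mostly blue, in 61 and 70 of 80 pairs of enzyme and population the highest and the lowest of the 5.

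The study's main comparison, Etv1 mutant against control, did not call any of the 10 enzymes. Over all cells, each was slightly below 0 as mutant minus control, with a median log2 fold change of -0.10 and a range between -0.28 for Hk2 and -0.04 for Pgam1, against a median of 0.00 over all 11061 genes tested. Hk2 averaged 30.4 ± 9.1 CPM in mutant and 36.3 ± 4.2 CPM in control cultures, with a log2 fold change of -0.28 (SE 0.24; adjusted p = 0.9999 by the quasi-likelihood test of edgeR). Ldha averaged 1790 ± 585 CPM in mutant and 1868 ± 272 CPM in control cultures (SD, n = 3 and 2), a log2 fold change of -0.07 (SE 0.24). Gapdh averaged 3710 ± 967 and 4083 ± 333 CPM, a log2 fold change of -0.15 (SE 0.19). These differences were smaller than the spread between mutant cultures, and in none of the 10 genes were the groups free of overlap, against 17.0% of all genes.

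At an adjusted p under 0.05, edgeR called 0.00904% of all genes tested over all cells, and 0 of the 10 enzymes. None of the 10 had an unadjusted p under 0.05, and DESeq2 also called 0 of them. Their variation between cultures of a genotype was wider than that of the median gene, with a median biological coefficient of variation of 0.199 for the enzymes and 0.115 for all genes. The signs rest on single cultures. Without mutant culture 2 the median of the 10 enzymes was 0.11 and 8 of them turned above 0, and without mutant culture 1 it was -0.35 with all 10 still below 0. No enzyme was called in either case over all cells.

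Within cell classes, edgeR called 0 of 10 enzymes in each of the 4 classes with at least 20 cells in every culture. It called 0.0218% of all genes in cycling-like, 0% in enterocyte-like, 0.0123% in stem-like and 0.0140% in unnamed Atf5/Psat1 cells. The median log2 fold change of the enzymes was -0.16, -0.14, -0.15 and -0.17 in the same order, and 37 of the 40 values were below 0. The direction of these medians rested on single cultures: over the 5 omissions of a culture they ranged between -0.53 and 0.10 in cycling-like, -0.26 and 0.11 in enterocyte-like, -0.54 and 0.02 in stem-like and -0.41 and 0.06 in Atf5/Psat1 cells. Without mutant culture 2 the medians were 0.10, 0.11, -0.0039 and 0.06 in these classes, and without mutant culture 1 they were -0.53, -0.26, -0.54 and -0.41. The stem-like median was 0.02 without mutant culture 3, and the enterocyte-like median was 0.02 without control culture 1. DESeq2 called none of them either. At an unadjusted p under 0.05 there was 1 value, Gpi1 in stem-like cells, with 497, 367 and 397 CPM in mutant and 483 and 478 CPM in control cultures, a log2 fold change of -0.25 (SE 0.11; adjusted p = 0.841 by edgeR). In the class as a whole its groups overlapped through mutant culture 1. Within Edn1/Lgr5 stem-like cells alone its groups did not overlap, at 374 ± 28 CPM in mutant and 457 ± 9 CPM in control cultures. Within Ifitm3/Agr3 stem-like cells they overlapped, at 500 ± 117 and 510 ± 7 CPM. The Gpi1 groups did not overlap within Apoa1/Apoc3 enterocyte-like cells either, at 1121 ± 215 CPM in mutant and 1346 ± 136 CPM in control cultures. In every other population they overlapped. In the stem-like class, 20.3% of all genes had groups without overlap. That share was not computed for Edn1/Lgr5 or Apoa1/Apoc3 cells alone, and no test was run in either.

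Hk2 in cycling-like cells was the 1 value among the 40 whose groups did not overlap. It had 24.4, 17.9 and 18.4 CPM in mutant cultures 1, 2 and 3, all below the 27.2 and 28.3 CPM of control cultures 1 and 2. The log2 fold change was -0.43 (SE 0.20; adjusted p = 0.977 by edgeR), and 20.3% of all genes in that class had groups without overlap. Gapdh in Atf5/Psat1 cells had a log2 fold change of -0.37 (SE 0.18; adjusted p = 0.978 by edgeR), with overlapping groups.

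Leaving out mutant culture 1 changed the calls in stem-like and cycling-like cells. In stem-like cells, 5 of the 10 enzymes then passed as lower in mutant cultures, namely Eno1, Gapdh, Ldha, Aldoa and Pgk1, with log2 fold changes between -0.75 and -0.54 (adjusted p between 0.000276 and 0.00542 by edgeR), while 0.145% of all genes passed in either direction. Eno1 in these cells had 1540, 652 and 716 CPM in mutant cultures 1, 2 and 3 and 1055 and 1160 CPM in control cultures 1 and 2, and Pgk1 had 994, 440 and 403 CPM in the mutant and 621 and 649 CPM in the control cultures. Mutant culture 1 stood above both controls and the other 2 mutant cultures below both. Edn1/Lgr5 cells, the stem-like population where most of the enzymes were lowest, made up 61.1%, 63.2% and 78.7% of the stem-like cells in mutant cultures 1, 2 and 3 and 59.5% and 62.2% in control cultures 1 and 2. Within Edn1/Lgr5 cells alone Eno1 had 1120, 642 and 660 CPM in the mutant and 810 and 974 CPM in the control cultures, and within Ifitm3/Agr3 stem-like cells it had 2128, 669 and 877 CPM in the mutant and 1346 and 1419 CPM in the control cultures. In each population, as in their sum, mutant culture 1 was above and mutant cultures 2 and 3 were below both controls for Eno1. In cycling-like cells Gapdh and Pgk1 passed without mutant culture 1, with log2 fold changes of -0.66 and -0.72 (adjusted p = 0.0171 and 0.0178 by edgeR), while 0.0782% of all genes passed. Pclaf/Rrm2 cells, the cycling-like population with the lower summed share, made up 20.7%, 44.1% and 37.0% of the cycling-like cells in mutant cultures 1, 2 and 3 and 28.6% and 25.4% in control cultures 1 and 2. Within Ube2c/Nusap1 cells alone Gapdh had 4391, 2198 and 2720 CPM in the mutant and 4105 and 3642 CPM in the control cultures, and within Pclaf/Rrm2 cells it had 2980, 1865 and 2012 CPM in the mutant and 2302 and 2903 CPM in the control cultures. The part of the mix of populations in the 2 classes' calls was not tested. Gapdh also passed there with no filter on low counts, at -0.30 (adjusted p = 0.000225 by edgeR), a setting under which 0.322% of all genes passed. With all 5 cultures its log2 fold change was -0.31 (SE 0.19; adjusted p = 0.977 by edgeR), and the 4106, 2059 and 2473 CPM of the mutant cultures overlapped the 3632 and 3479 CPM of the control cultures.

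**Figure D4:**
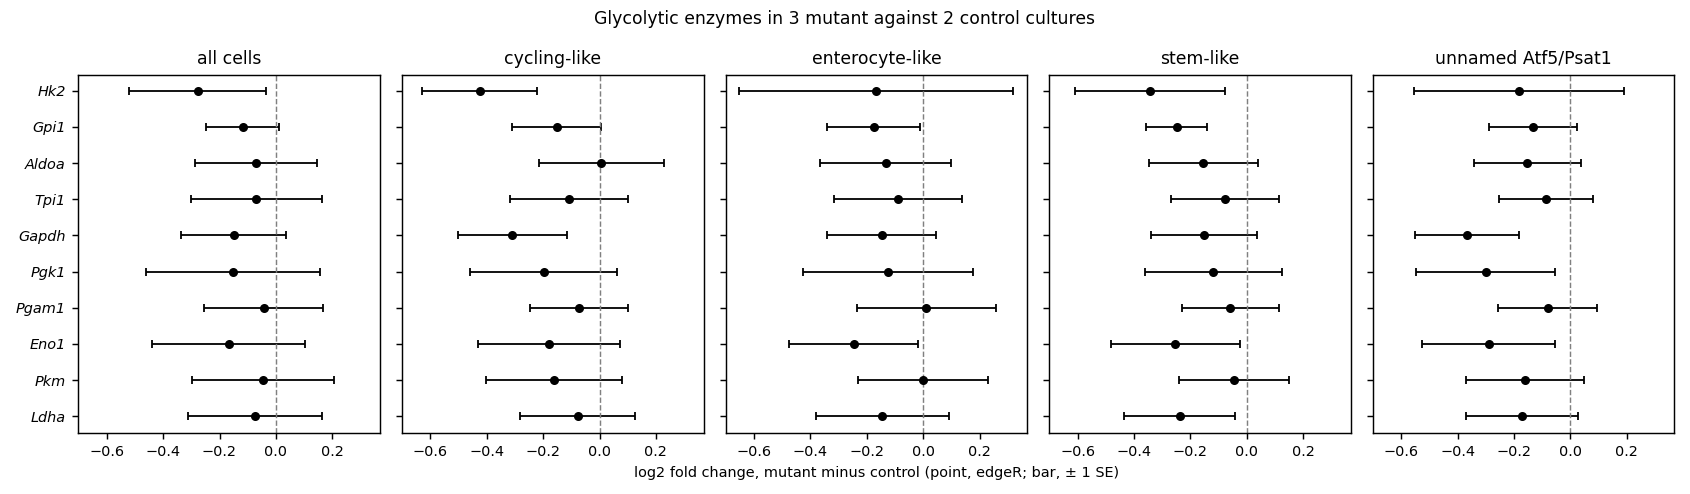
Log2 fold change of each glycolytic enzyme, mutant minus control, from edgeR on counts summed per culture (3 mutant, 2 control), over all cells and in 4 cell classes. Points are estimates and bars are ± 1 SE. Over all cells the 10 points lie between -0.28 and -0.04, and none of the 50 values shown passed an adjusted p under 0.05.

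Whether the genotype difference itself differed between cycling-like and stem-like cells was tested with culture as a block. The term was called for 0 of 10 enzymes by edgeR, against 0.0325% of 9242 genes, and its values lay between -0.16 for Gapdh and 0.16 for Ldha. The lowest adjusted p among the enzymes was 0.909, and none had an unadjusted p under 0.05.

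The genes around the pathway were read from lists of transporters, other isozymes, regulators and users of pyruvate, gluconeogenesis, the pentose phosphate pathway and hypoxia-inducible genes. Over all cells edgeR called 0 genes higher and 0 lower in mutant cultures in each list, of 7, 11, 13, 6, 7 and 17 genes tested, against the 0.00904% of all genes named above. The median log2 fold changes were 0.04, 0.17, 0.03, -0.01, 0.02 and -0.07. Pfkfb4, a kinase and phosphatase in 1 protein that sets the level of the glycolytic activator fructose-2,6-bisphosphate, had the smallest unadjusted p, with 3.02 ± 1.04 CPM in mutant and 1.48 ± 0.53 CPM in control cultures and a log2 fold change of 1.05 (SE 0.42; adjusted p = 0.9999 by edgeR). G6pdx, which opens the pentose phosphate pathway, averaged 21.3 ± 2.9 CPM in mutant and 17.1 ± 0.6 CPM in control cultures, a log2 fold change of 0.30 (SE 0.14; adjusted p = 0.9999 by edgeR). Car9, a hypoxia-inducible carbonic anhydrase, averaged 66.0 ± 17.8 and 82.7 ± 3.4 CPM, and Hif1a, the oxygen-regulated subunit of the factor, 26.8 ± 2.4 and 22.7 ± 1.1 CPM. Neither passed, with log2 fold changes of -0.34 (SE 0.20) and 0.22 (SE 0.13). Tigar, a phosphatase that lowers fructose-2,6-bisphosphate, averaged 6.55 ± 0.41 CPM in mutant and 8.21 ± 0.09 CPM in control cultures, and Pgd, the next dehydrogenase of the pentose phosphate pathway after G6pdx, averaged 137 ± 27.8 and 113 ± 15.9 CPM. Their log2 fold changes were -0.33 (SE 0.18) and 0.27 (SE 0.18), and neither passed (adjusted p = 0.9999 for both by edgeR).

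By population, several isozymes and carriers of absorptive cells, and the gluconeogenic Fbp1, had wide ranges. Hkdc1, a hexokinase-domain protein, averaged 88.1 ± 14.0 CPM in Apoa1/Apoc3 enterocyte-like cells and 1.79 CPM in Edn1/Lgr5 stem-like cells (SD, n = 5). Slc2a2, the basolateral glucose carrier of enterocytes, averaged 74.5 ± 17.8 CPM there and 0.498 CPM in the stem-like cells, and Fbp1, which runs the fructose-bisphosphate step backwards, averaged 508 ± 246 and 15.7 CPM. G6pc, which releases free glucose from glucose-6-phosphate, averaged 13.7 ± 6.4 CPM in the Apoa1/Apoc3 cells and had 0 counts in Edn1/Lgr5 stem-like cells. It was too low over all cells for the genotype test. The hypoxia-inducible genes Ndrg1 and Egln3 (an oxygen-sensing prolyl hydroxylase) peaked in the same enterocyte-like population, at 847 ± 319 and 180 ± 91 CPM, against 34.3 and 9.64 CPM in Edn1/Lgr5 stem-like cells. Enteroendocrine-like cells had the highest mean of Slc2a5, the fructose carrier, at 32.8 ± 18.0 CPM. The same held for Pfkfb3, a relative of Pfkfb4, at 35.0 ± 12.5 CPM. It also held for Bpgm, which makes 2,3-bisphosphoglycerate, at 92.0 ± 47.4 CPM. These 3 means included the 9 tuft-like cells and came from 7 to 18 cells per culture. Not all of the surrounding genes were high in enterocyte-like cells: Rpia, of the pentose phosphate pathway, and Pck2, a mitochondrial enzyme that makes phosphoenolpyruvate, had their lowest means in the Apoa1/Apoc3 population, at 14.3 ± 7.0 and 30.6 ± 10.2 CPM. Pgd, of the same pentose phosphate list as Rpia, had its highest mean there, at 232 ± 92.7 CPM, against 85.2 CPM in Edn1/Lgr5 stem-like cells.

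The order of the cultures seen in the enzymes was also present in the hypoxia-inducible list, and was not evident in the pentose phosphate list. Of 16 hypoxia-inducible genes with at least 5 CPM, 12 were highest in mutant culture 1 and 15 lowest in mutant culture 2. Of 6 transporters 4 were highest in mutant culture 1 and 4 lowest in mutant culture 2, and of 10 other isozymes 6 and 4 were. Of 10 regulators and users of pyruvate it was 3 and 3, and of 5 gluconeogenic genes 1 and 1. Of 7 pentose phosphate genes 2 were highest in mutant culture 1 and 0 lowest in mutant culture 2, beside the 24.1% and 23.4% of all genes given above. Bnip3, a mitophagy receptor induced by low oxygen, had 109, 25.5 and 53.9 CPM in mutant cultures 1, 2 and 3 and 86.4 and 61.4 CPM in control cultures 1 and 2. Slc16a3, the lactate exporter MCT4, had 90.9, 17.1 and 62.0 CPM in the mutant and 56.4 and 52.7 CPM in the control cultures. Hif1a transcript did not share this order, at 24.1, 28.8 and 27.3 CPM in the mutant and 23.4 and 21.9 CPM in the control cultures.

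Likeness in level was measured over 52 sums, each of at least 10 cells of a population in a culture, which share cultures, populations and the sequencing run. Among the 9 enzymes other than Hk2 the 36 pairs had a median Pearson r of 0.83, ranging between 0.66 and 0.92 on the log2(CPM + 1) scale. After the mean of each population was subtracted, differences between cultures within a population remained, with their counting noise. The median was then 0.86. Hk2 had a median r of 0.11 with the others, and 0.40 within populations.

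The 8 other genes whose level was most like the mean z-score of the 10 enzymes were Fdps (r = 0.85), Bnip3 (0.85), Fam162a (0.82), AA467197 (0.81), Pgm1 (0.81), Fdft1 (0.80), 2610528A11Rik (0.80) and Slc16a3 (0.79). Fdps and Fdft1 are enzymes of the route to sterols, and Pgm1 links glycogen with glucose-6-phosphate. Of the 5339 genes with a mean of at least 20 CPM, 5.58% had an r above 0.5 with the enzymes, and the median was -0.06. Above 0.5 were 9 of 16 hypoxia-inducible genes, 5 of 6 transporters and 6 of 9 other isozymes with at least 5 CPM. Of the 5 gluconeogenic genes 1 was above 0.5. Of the 10 regulators and users of pyruvate and of the 7 pentose phosphate genes 0 were above 0.5. After the mean of each population was subtracted, 8 of the 16 hypoxia-inducible genes, 3 of the 6 transporters and 3 of the 9 other isozymes were above 0.5. Among these isozymes was Eno1b (0.56), the retrogene whose reads can be shared with Eno1. No gene of the remaining lists was above 0.5 after the subtraction. The share of all genes above 0.5 after this subtraction was not computed. The 5.58% is for levels without it and for genes with at least 20 CPM. The hypoxia-inducible list was itself mixed, from Bnip3 at 0.85 down to a lowest r of -0.09. Within that range lay Egln3 at 0.77, Ndrg1 at 0.71 and Hif1a at 0.08.

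**Figure D5:**
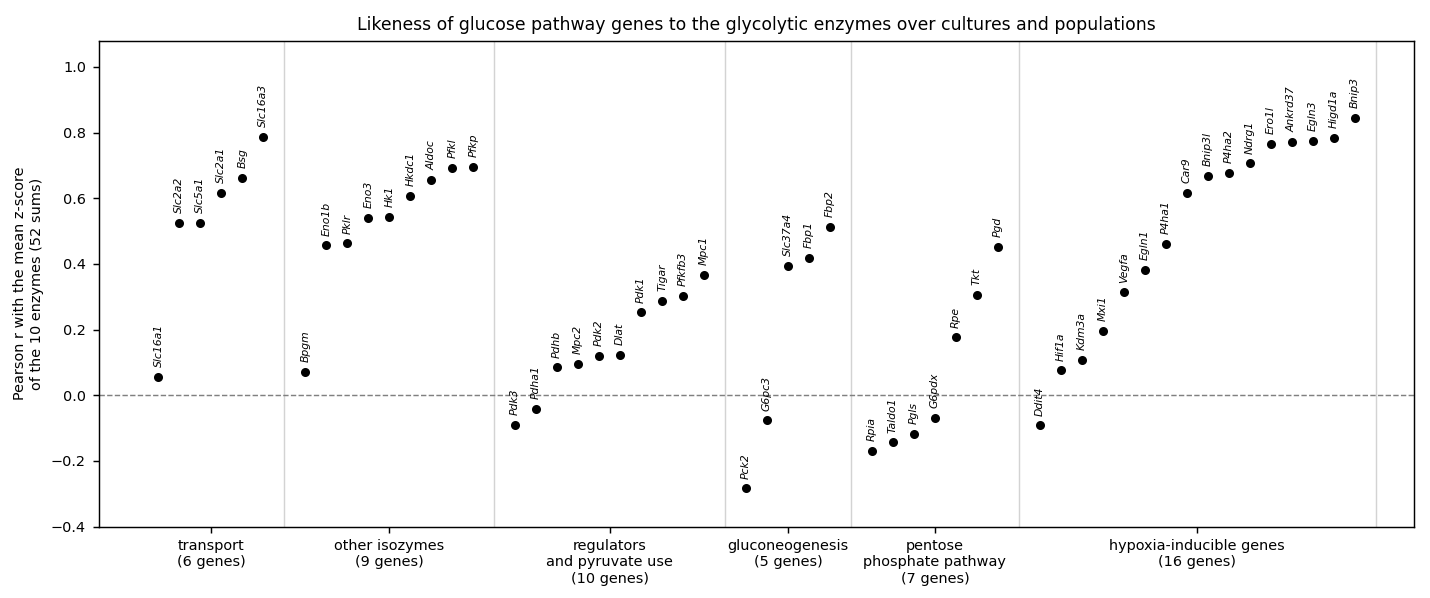
Pearson r between genes of the 6 pathway lists with at least 5 CPM and the mean z-score of the 10 glycolytic enzymes, over 52 sums of a population in a culture. Each point is a gene, ordered by r within its list. Above 0.5 lie most transporters and other isozymes, 9 of 16 hypoxia-inducible genes and 1 of 5 gluconeogenic genes. No gene of the pentose phosphate or the regulator list does.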

How the data were processed

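A pool of 5 cultures was sequenced as an RNA and a hashtag library. The authors deposited whole hashtag counts and, for RNA, an estimated count per gene and barcode, not normalized as far as the values show; 95.7% of RNA values above 0 are whole within 0.001. The build mm10 and the tools Seurat 4.3.0, Salmon 1.4.0, alevin and Cell Ranger 6.1.0 are listed in the submitters' processing notes, which give no role for any of them.

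Of 3409 barcodes, 237 had under 500 genes and 547 over 25% mitochondrial counts, leaving 2725. HTODemux (Seurat 5.3.0, positive quantile 0.99) placed 1432 of these in 1 culture; 239 with several hashtags and 1054 with none were left out. Scrublet marked 3 of the 2725, far fewer than the 239 with several hashtags. Its marks were not used, and doublets within a culture may remain. Cells were clustered with scanpy 1.11.5 (2000 variable genes scaled, 30 components, 15 neighbours, Leiden resolution 0.8). A name needed 3 markers of a list at a log2 fold of 0.5 in 25% of cells; shallow clusters with no marker among their 10 leading genes stayed unnamed.

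Estimated counts were summed per culture, rounded, and tested as mutant minus control with edgeR 4.0.16 (quasi-likelihood test, TMM, filterByExpr, Benjamini-Hochberg over all genes), with DESeq2 1.42.0 as an alternative. Other alternatives were DESeq2 size factors, no filter on low counts, MULTIseqDemux, equal cell numbers, stricter cell filters, thinning, other clusterings and leaving out each culture. The test was checked on simulated data. Their changes were larger than those of the enzymes and their spread between cultures narrower than that of the median enzyme. The check therefore does not speak to changes as small as those of the enzymes. CPM are summed counts scaled to 1000000, and fold changes by population use log2(CPM + 1). Levels of different genes were not compared with each other.

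The enzymes, pathway lists, rules and alternatives were chosen with earlier results of these data known. Named were all 10 enzymes, of each pathway list the 2 genes with the smallest p and the 2 with the widest range over populations, and the 8 genes most like the enzymes; 1 gene of the isozyme list is not reported here and is left out of the likeness counts. Slc16a3, Bnip3, Egln3, Ndrg1 and Hif1a values by culture were chosen after they were seen. With 3 and 2 cultures, p-values reflect the spread between these cultures.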

Additional observations from a re-analysis of the deposited data

How the results depend on the processing

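Of 419 values recomputed under alternatives, 7 moved and 11 reversed. The other 401 kept their direction and side of the threshold, or moved by less than the spread between cultures. Only fold changes of single genes, mutant minus control, could be labelled reversed. Over all cells every enzyme was followed in this way. Within classes only Hk2 in cycling-like, Gpi1 in stem-like and Gapdh in Atf5/Psat1 cells were. The signs of the other enzymes within classes are therefore not covered by the 419 values. Medians and differences by population were labelled as moved or not, so their changes of sign are outside the 11. Among them, Hk2 in enterocyte-like minus stem-like cells went from 0.42 (SD 0.53) to -0.46 (SD 2.16) on the log2 scale after thinning. Counts of enzymes called were above 0 in 3 of 63 cases: in cycling-like cells 1 with no filter on low counts, and between 0 and 2 when a culture was left out; in stem-like cells between 0 and 5 when a culture was left out. Over all cells, in enterocyte-like and Atf5/Psat1 cells and for the genotype by class term it was 0 throughout. Over all cells 119 of 130 alternative fold changes of the enzymes were below 0, and the lowest adjusted p by edgeR or DESeq2 was 0.952. The 11 reversed values came from leaving out a culture, with ranges of log2 fold change over the 5 omissions of -0.49 to 0.066 for Eno1, -0.35 to 0.13 for Tpi1, -0.36 to 0.0010 for Gapdh, -0.35 to 0.11 for Ldha, -0.28 to 0.13 for Aldoa, -0.31 to 0.19 for Pkm, -0.24 to 0.15 for Pgam1 and -0.53 to 0.10 for Pgk1. Of these, 8 came without mutant culture 2 and 3 (Ldha 0.10, Aldoa 0.02 and Pgam1 0.08) without control culture 1. No paired analysis was possible because the cultures carry hashtags and no replicate numbers shared between genotypes. Another limit is that 1054 barcodes had no called hashtag, for reasons that were not tested. Populations with 7 to 20 cells per culture limit single values of Hk2.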
